A study of Homo sapiens with 9 samples.

Results

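The myosin and tropomyosin genes described here were the protein-coding genes whose symbols begin with MYH, MYL or MYO followed by a digit, together with *TPM1*, *TPM2*, *TPM3*, *TPM4*, *CALD1*, *TAGLN* and *TAGLN2*. They numbered 59 of the 60660 genes of the count matrix, and 40 of the 59 had enough reads to be tested. The cells were OVCAR3, an established human line of high-grade serous ovarian carcinoma. RNA-seq covered Control cells, cells that overexpressed *CTCFL* (CTCFL-OE) and cells in which it was knocked down (CTCFL-KD), with 3 biological replicates of each, and 3 technical replicates had been pooled into each biological replicate. CTCFL, also called BORIS, is a testis-specific paralog of the insulator protein CTCF that many ovarian tumors express. CTCFL-OE cells had received 2 µg of a plasmid with the *CTCFL* reading frame, Control cells the matching LacZ plasmid, and both were harvested at 48 h after transient transfection. The RNA of CTCFL-KD cells came from an earlier published *CTCFL* knockdown experiment by the same group. No control of that earlier experiment was analysed here. In CTCFL-KD vs Control and in CTCFL-KD vs CTCFL-OE, the *CTCFL* level, the way of transfection and the experiment therefore cannot be told apart.

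Myosins are motors that pull on actin filaments with the energy of ATP. Myosin II heavy chains pair with essential and regulatory light chains and form the bipolar filaments that contract stress fibers and the cell cortex, whereas unconventional myosins carry vesicles, tether membranes and fill filopodia and microvilli. Tropomyosins are coiled coils that lie along the actin filament and decide which motors and severing proteins can reach it, and caldesmon and the transgelins bind and stiffen the same filaments. In epithelial tumor cells this machinery underlies migration, shape and adhesion. Several of its genes, among them *TPM1*, *MYL9* and *TAGLN*, are textbook targets of serum response factor, which binds the CArG box.

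The study's supplementary list of predicted CTCFL binding sites holds a site in *MYO7A*. From its predictions the study then named the genes whose site matched a ChIP-seq peak, and *MYO7A* was not among them. The study looked for sites only near genes that it had called in both comparisons with Control, so the list says nothing about members outside that set. The sequence of that site was found on the minus strand at chr11:77128992-77129002 of GRCh38, 1 base before the listed start. It lies in an intron, 746 bases after the start of the gene and 503 bases after the nearest upstream exon. It is shown for the *MYO7A* results, and the capitals mark the site within the minus strand of chr11:77128947-77129047.
*MYO7A* site: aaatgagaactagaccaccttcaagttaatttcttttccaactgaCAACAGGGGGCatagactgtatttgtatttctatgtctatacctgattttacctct

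Promoters of 3 members that were DEGs in CTCFL-KD are shown as examples of a CArG box and of the AGGGGGC core of the *MYO7A* site. Each is the 250 bases before a RefSeq start on GRCh38.p14, written 5′ to 3′ along the gene, with the match in capitals. The box of *TPM4* (chr19:16067288-16067537, plus strand) begins 173 bases before the start, and that of *MYO1E* (chr15:59372872-59373121, minus strand) begins 31 bases before it. The core in *TPM1* (chr15:63048239-63048488, plus strand) begins 54 bases before the start.
*TPM4* promoter: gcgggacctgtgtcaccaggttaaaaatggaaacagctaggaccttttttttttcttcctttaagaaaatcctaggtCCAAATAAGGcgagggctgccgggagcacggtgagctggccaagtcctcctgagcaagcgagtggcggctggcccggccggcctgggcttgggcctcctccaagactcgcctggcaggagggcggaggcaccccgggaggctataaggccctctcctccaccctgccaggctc
*MYO1E* promoter: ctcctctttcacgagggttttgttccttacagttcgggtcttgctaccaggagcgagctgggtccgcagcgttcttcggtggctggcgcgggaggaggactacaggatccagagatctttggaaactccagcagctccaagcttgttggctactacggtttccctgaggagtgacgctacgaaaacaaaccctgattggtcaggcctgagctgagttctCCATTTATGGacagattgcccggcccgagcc
*TPM1* promoter: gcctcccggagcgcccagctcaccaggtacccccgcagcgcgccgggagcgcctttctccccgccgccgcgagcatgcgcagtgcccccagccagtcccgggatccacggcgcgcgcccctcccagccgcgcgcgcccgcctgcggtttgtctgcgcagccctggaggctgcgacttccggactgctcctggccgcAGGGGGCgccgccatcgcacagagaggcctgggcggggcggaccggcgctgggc

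RefSeq promoters were at hand for 47 of the 59 members, with 70 entries, and *MYO7A* had none. On either strand, a CArG box was found in 4 of these 70 entries (*MYL7*, *MYO1A*, *MYO1E* and *TPM4*) and in 406 of all 34788 promoters, or 1.17%. *TPM1*, *MYL9* and *TAGLN*, named above as targets of serum response factor, were not among the 4. Repeated sequences were left out of the 34788 promoters but not out of the 70 entries. AGGGGGC was found in 16 of the 70 entries and in 4631 of all promoters, or 13.3%. Of the 16 members, *MYL5* and *MYO5C* passed higher in CTCFL-KD vs Control, and *MYH9*, *MYO10*, *MYO1C*, *MYO1D*, *TPM1* and *TPM4* lower. *MYL11*, *MYL12A*, *MYL12B*, *MYO5B*, *MYO9A*, *TAGLN2* and *TPM2* did not pass, and *MYH6* was not tested. A match of letters is a description and not a measured binding site.

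Total counts ranged from 14332622 to 24490080 per library, and the members took 0.371 to 0.658% of them. *CTCFL* had 6, 9 and 10 counts in Control, 36, 34 and 72 in CTCFL-OE, followed by 0, 1 and 0 in CTCFL-KD, so the groups followed their labels. Levels are given as CPM, counts relative to the TMM-adjusted library size, ± SD of 3 libraries, and a gene was called a DEG when its log2 fold change exceeded 1 or lay under -1 and its adjusted p was below 0.1 (CTCFL-OE vs Control) or below 0.05 (the other comparisons). In Control, *CTCFL* itself stood at 0.386 ± 0.108 CPM, near the 0.117 to 0.271 CPM that a count of 0 allows. Its fall in CTCFL-KD was thus measured on few counts. CTCFL-KD replicate 1 stood apart. Its TMM factor was 0.775 against 0.945 to 1.09 in the other libraries, and its ratio to its group was lower for longer transcripts (rank correlation -0.59 over 15340 genes, by Spearman). Mitochondrial genes took 6.16 to 6.52% of the Control counts, 7.4 to 14.9% of those of CTCFL-OE and 7.8 to 11.8% of those of CTCFL-KD.

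The members' levels were those of a non-muscle cell. Per kilobase of transcript, the highest in Control were the essential light chain *MYL6* with 508 ± 37.4 CPM per kilobase, the actin bundler *TAGLN2* with 492 ± 5.202, and the regulatory light chains *MYL12B* with 383 ± 21.99 and *MYL12A* with 319 ± 9.38. *TPM4* (229 ± 4.85) and *TPM1* (156 ± 4.19) led the tropomyosins, and *MYH9*, the heavy chain of non-muscle myosin IIA, reached 128 ± 9.19 on the same scale. *MYO10*, the motor of filopodial tips, with 61.3 ± 4.90, and *MYO1C*, a tether between membrane and cortex, with 47.3 ± 1.75, were the highest unconventional myosins. *MYO7A* stood far lower, at 3.16 ± 0.228 in Control. These levels rest on the canonical transcript of each gene, of 7.06 kilobases for *TPM3* and 1.22 for *TPM1*. The transcripts in use were not measured, and in CPM without length *TPM3* (468.3 ± 8.59) stood above *TPM1* (189.2 ± 5.10) in Control. In all, 18 members reached 50 CPM in Control and 23 were under 1 CPM. The sarcomeric and other tissue-restricted members *MYH1*, *MYH2*, *MYH4*, *MYH6*, *MYH7*, *MYH8*, *MYH13*, *MYL1*, *MYL2*, *MYL3*, *MYL7*, *MYL10*, *MYO1A* and *MYO3A* had at most 3 counts in any library, the limit that a count of 0 also allows. The other 5 untested members were *MYO1F*, *MYO1G*, *MYO1H*, *MYL4* and *MYO18B*, with at most 16 counts.

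**Figure D1:**
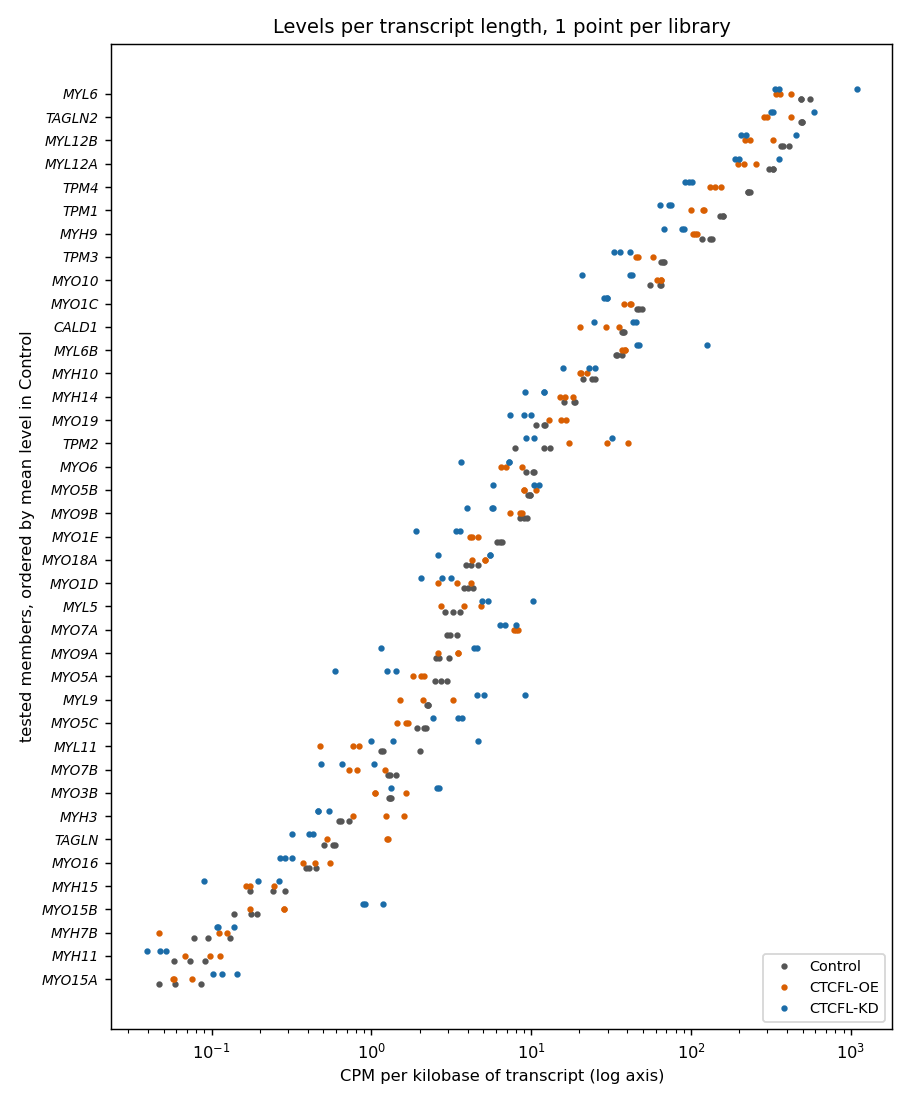
CPM per kilobase of transcript (log axis) of 39 of the 40 tested members in each of the 9 libraries, ordered by the mean in Control. *MYL6*, *TAGLN2*, *MYL12B* and *MYL12A* lie at the top, with Control means of 319 to 508 CPM per kilobase, and *MYO7A* moves from 3.16 in Control to 8.02 on overexpression and 7.10 on knockdown.

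In CTCFL-OE vs Control, *MYO7A* was the only DEG among the 40 tested members, or 2.5%, against 2.07% of all 17794 genes tested. Of all genes, 1.37% were higher DEGs and 0.702% lower ones. *MYO7A* (ENSG00000137474, chr11:77128246-77215241 of GRCh38) encodes myosin VIIa, the motor of hair cell stereocilia and photoreceptors, and its mutations cause Usher syndrome. It had 462, 658 and 440 counts in Control, 1286, 1176 and 975 in CTCFL-OE, followed by 670, 865 and 869 in CTCFL-KD. Every CTCFL-OE and CTCFL-KD library was above every Control library once scaled, since Control spanned 22.3 to 25.6 CPM, CTCFL-OE 58.7 to 61.5 and CTCFL-KD 47.6 to 60.4. The mean rose from 23.7 ± 1.70 CPM to 60.0 ± 1.40 on overexpression, a log2 fold change of 1.34 (SE 0.16, adjusted p = 0.00475, edgeR). In CTCFL-KD it was 53.2 ± 6.59 CPM, a log2 fold change of 1.17 (SE 0.16, adjusted p = 0.000322, edgeR). *MYO7A* was thus higher than Control with *CTCFL* raised and with *CTCFL* lowered, and the comparisons share the same Control libraries. Its difference between CTCFL-KD and CTCFL-OE was a log2 fold change of -0.18 (SE 0.16), with an adjusted p of 0.432 by edgeR. The *MYO7A* call held in both comparisons with Control under all 17 other settings of the analysis.

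Of the 5 protein-coding genes whose log2 CPM followed *MYO7A* most closely over the 9 libraries, among 13708 compared, 4 were *PALD1* (Pearson's r = 0.968), *OGDHL* (0.952), *FGFR1* (0.951) and *CBS* (0.950). These libraries share 3 conditions and one sequencing study, and the values are a description. *FGFR1*, a fibroblast growth factor receptor, had 69.9 ± 2.80 CPM in Control, 144.9 ± 21.8 in CTCFL-OE cells and 154.5 ± 1.29 in CTCFL-KD. Among the members, *TPM2* came nearest with r = 0.661, and *TPM4* was the most opposed with r = -0.824.

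**Figure D2:**
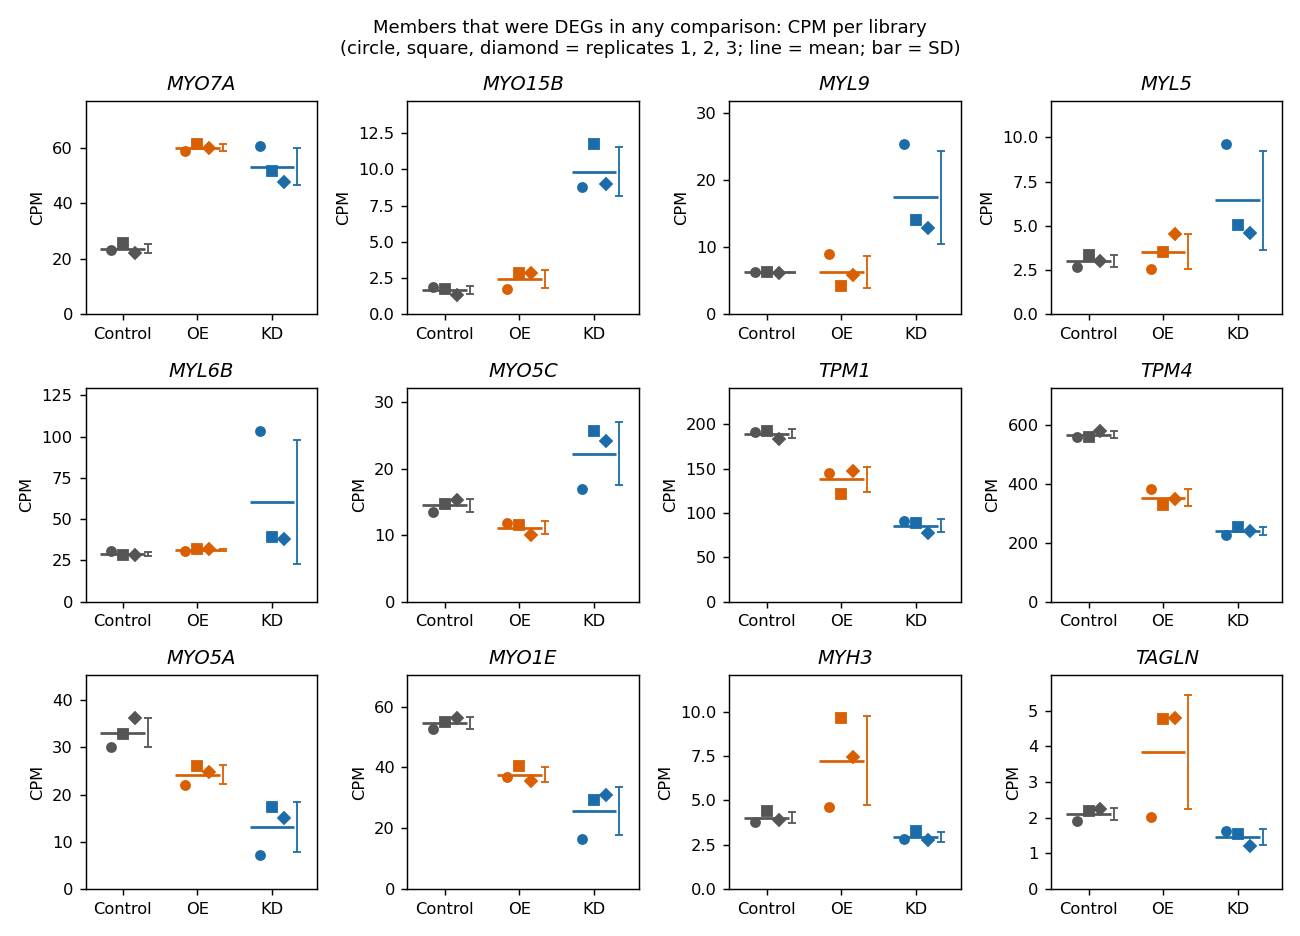
CPM in each library for the 12 members that were DEGs in at least 1 of the 3 comparisons, with the mean (line) and SD (bar) of each group of 3. *MYO7A* is high in both CTCFL-OE and CTCFL-KD, *TPM1* and *TPM4* step down from Control through CTCFL-OE to CTCFL-KD, and *MYL6B* and *MYL9* are highest in CTCFL-KD replicate 1.

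*TPM4* also passed the adjusted p there, so 2 members (5%) passed against 3.15% of all genes, with 1 higher (2.5% against 1.99%) and 1 lower (2.5% against 1.16%). The libraries of the 2 groups did not overlap in 22 of the 40 tested members, or 55% against 37.1% of all genes tested. In 17 of them every CTCFL-OE library was below every Control library, or 42.5% of the tested members against 20.8% of all genes, and in 5 every one was above, or 12.5% against 16.3%. The median log2 fold change of the members was -0.141, and that of all genes -0.01. With the replicate block, without any 1 Control library, without CTCFL-OE replicate 2 or 3 and without CTCFL-KD replicate 2 or 3, *MYO7A* was the only member to pass, so the lower call was lost, against 0.24 to 2.43% of all genes passing. Calls rose for members and for all genes in an edgeR fit on these 6 libraries alone, where 15 members passed (36.6% against 20.2% of all genes), 11 of them lower (26.8% against 7.96%). Without CTCFL-KD replicate 1, which enters this comparison through the filter, the scaling and the spread, 19 passed (46.3% against 27.4%), 14 of them lower (34.1% against 13.4%).

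*TPM2*, the beta-tropomyosin of muscle and stress fibers, had the largest CTCFL-OE fold change that missed the test. It had 310, 370 and 187 counts in Control, 448, 674 and 785 in CTCFL-OE, followed by 424, 209 and 202 in CTCFL-KD. All Control libraries were below the 3 of CTCFL-OE, and these spread from 20.4 to 48.2 CPM. The log2 fold change was 1.40 (SE 0.46, adjusted p = 0.163, edgeR), and *TPM2* was a DEG in 7 of the 17 other settings, among them the fit on 6 libraries and the DESeq2 fit.

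In CTCFL-KD vs Control, 9 of the 40 tested members were DEGs, or 22.5% against 23.2% of all genes. The higher ones were *MYO15B*, *MYL9*, *MYO7A*, *MYL5* and *MYL6B*, and the lower ones *MYO5A*, *TPM4*, *TPM1* and *MYO1E*. By direction, 12.5% of the tested members were higher DEGs against 15.3% of all genes, and 10% were lower DEGs against 7.94%. By the adjusted p alone 21 members passed, or 52.5% against 38.2%, of which 14 were lower (35% against 16.8%) and 7 higher (17.5% against 21.4%). CTCFL-KD and Control did not overlap in 27 members, or 67.5% against 56.3%, with 19 lower (47.5% against 27.6%) and 8 higher (20% against 28.7%). Without Control replicate 1, 2 or 3, 13, 13 and 14 members passed (31, 31.7 and 33.3%), against 26.8, 26.7 and 25.8% of all genes. In each of these 3 fits *MYH9*, *MYL5*, *MYL6B*, *MYO1D*, *MYO5C*, *MYO6*, *MYO7B* and *MYO10* missed the adjusted p, at 0.0533 to 0.129 by edgeR. The median log2 fold change was -0.376 for the members and 0.077 for all genes. In bulk RNA, fewer cells of a kind and less RNA per cell cannot be told apart.

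**Figure D3:**
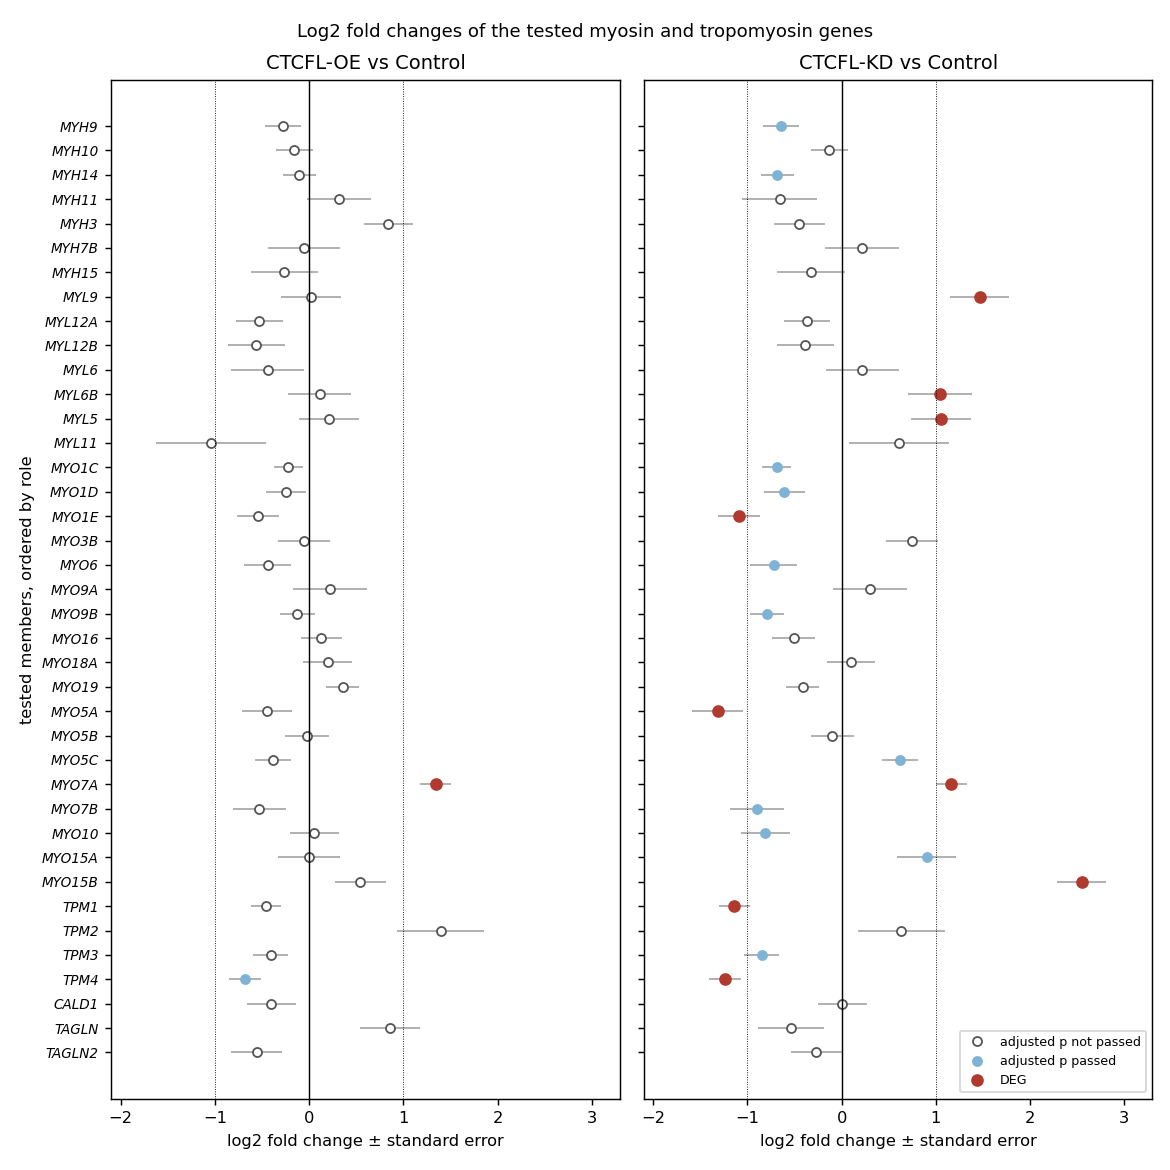
Log2 fold changes ± standard error of 39 of the 40 tested members in CTCFL-OE vs Control (left) and CTCFL-KD vs Control (right), ordered by role, with DEGs in red, members that passed only the adjusted p in blue and the others open. In CTCFL-OE the 2 members that passed were *MYO7A* and *TPM4*, and in CTCFL-KD most of those that passed lie left of 0.

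Of the 4 tropomyosins, 3 passed lower in CTCFL-KD, against 16.8% of all genes. *TPM4* (chr19:16067021-16103002), a cytoskeletal tropomyosin of most non-muscle cells, had 11145, 14388 and 11440 counts in Control, 8389, 6245 and 5685 in CTCFL-OE, followed by 2515, 4236 and 4385 in CTCFL-KD. Its mean CPM stepped down from 565.6 ± 12.0 through 352.8 ± 28.3 to 239.6 ± 12.5, and no 2 groups overlapped. Its log2 fold change was -0.68 in CTCFL-OE (SE 0.17, adjusted p = 0.0809, edgeR) and -1.24 in CTCFL-KD (SE 0.17, adjusted p = 0.000326, edgeR). The CTCFL-OE call held in 8 of the 17 other settings and was lost, for instance, without any one of the Control libraries, while the CTCFL-KD call held in all 17.

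*TPM1* (chr15:63042620-63071915), the alpha-tropomyosin gene whose splice forms serve both muscle and stress fibers, had 3828, 4956 and 3620 counts in Control, 3177, 2316 and 2396 in CTCFL-OE, followed by 1011, 1489 and 1420 in CTCFL-KD. It followed the same order without overlap, at 189.2 ± 5.10, 137.7 ± 14.5 and 85.8 ± 7.10 CPM. Its log2 fold change was -1.14 in CTCFL-KD (SE 0.16, adjusted p = 0.000409, edgeR) and -0.46 in CTCFL-OE (SE 0.16, adjusted p = 0.182, edgeR). *TPM3* fell in CTCFL-KD as well, from 468.3 ± 8.59 to 259.9 ± 29.9 CPM (log2 fold change -0.85, SE 0.19, adjusted p = 0.00462, edgeR). With length and GC offsets *TPM3* was at -0.56 and no longer passed (adjusted p = 0.0895, edgeR). *TPM2* did not pass, at 0.63 in CTCFL-KD with an adjusted p of 0.301 by edgeR, and its direction rested on replicate 1. It was -0.16 without that library, whose 38.2 CPM stood against 12.4 and 11.1 in the other CTCFL-KD libraries and a Control mean of 13.1, and 0.08 with length and GC offsets. Reads of *TPM3* and *TPM4* pseudogenes could not be separated here, since the handling of multi-mapping reads is not given in the sources used. Those of the antisense *TPM1-AS*, which overlaps 18% of the *TPM1* exon bases, could not either, since the strand setting is not given.

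Within the tropomyosins, the share of *TPM2* per transcript length was 1.73 to 2.82% in Control, 4.92 to 11.6% in CTCFL-OE cells and 4.57 to 13.4% in CTCFL-KD. Both treated groups lay above Control, although the highest CTCFL-KD share came from replicate 1 and the other CTCFL-KD libraries had 4.57 and 4.73%. *TPM4* held 48.8 to 50.9% in Control and less in every treated library, at 40.4 to 44.3% in CTCFL-OE and 38.2 to 47.7% in CTCFL-KD. Such shares depend on the canonical transcript lengths, and the transcripts in use were not measured.

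Among the motors of class II, *MYH9* went from 956 ± 68.5 CPM in Control to 788 ± 24.1 on overexpression and 611 ± 94.0 on knockdown. The CTCFL-KD difference passed the test (log2 fold change -0.64, SE 0.19, adjusted p = 0.0231, edgeR). *MYH14*, the heavy chain of non-muscle myosin IIC, fell by 0.69 on the log2 scale in CTCFL-KD, from 123.0 ± 10.1 to 76.4 ± 11.5 CPM (SE 0.18, adjusted p = 0.0106, edgeR). *MYH10*, the IIB chain, had 180.2 ± 15.96, 161.5 ± 9.09 and 164.5 ± 38.2 CPM in the order Control, CTCFL-OE and CTCFL-KD, with an adjusted p of 0.631 in CTCFL-KD by edgeR. Its share of these 3 chains per length rose without overlap from 13.6 to 14.1% in Control to 17.0 to 19.7% in CTCFL-KD.

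*MYH3* (chr17:10628526-10657309), the embryonic skeletal heavy chain, was the only muscle heavy chain above 2 CPM in Control. It had 76, 113 and 77 counts in Control, 102, 185 and 121 in CTCFL-OE, followed by 31, 55 and 51 in CTCFL-KD. The 3 groups did not overlap, at 3.81 to 4.39, 4.65 to 9.67 and 2.79 to 3.27 CPM. Neither comparison with Control passed, with log2 fold changes of 0.84 (SE 0.26, adjusted p = 0.139, edgeR) in CTCFL-OE and -0.45 (SE 0.27, adjusted p = 0.216, edgeR) in CTCFL-KD. CTCFL-KD vs CTCFL-OE did, at -1.29 (SE 0.27, adjusted p = 0.00558, edgeR), and held in all 17 other settings.

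With all 9 libraries and no offsets, the light chains that passed in CTCFL-KD vs Control were *MYL9*, *MYL6B* and *MYL5*, each higher. *MYL9* (chr20:36541497-36551447), the regulatory light chain typical of smooth muscle and stress fibers, had 126, 162 and 123 counts in Control, 197, 80 and 95 in CTCFL-OE, followed by 282, 237 and 234 in CTCFL-KD. All CTCFL-KD libraries were above the others, at 25.4, 14.1 and 12.8 CPM against 6.28 ± 0.0430 in Control and 6.33 ± 2.44 in CTCFL-OE. The log2 fold change in CTCFL-KD was 1.47 (SE 0.32, adjusted p = 0.00448, edgeR), and 1.10 without replicate 1. Its share of the regulatory light chains *MYL9*, *MYL12A* and *MYL12B* per length was 0.307 to 0.330% in Control and 1.11 to 1.22% in CTCFL-KD, so it remained a minor form in every library.

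*MYL6B* (chr12:56152256-56159647), an essential light chain, and *MYL5* (chr4:673580-682028), a little-studied light chain, were DEGs that rested on CTCFL-KD replicate 1. *MYL6B* had 609, 735 and 557 counts in Control, 670, 609 and 519 in CTCFL-OE, followed by 1149, 657 and 691 in CTCFL-KD. Replicate 1 stood at 103.6 CPM, and the other CTCFL-KD libraries at 39.1 and 37.9 still lay above the Control mean of 29.1 ± 1.23. The log2 fold change of 1.04 (SE 0.34, adjusted p = 0.0306, edgeR) became 0.41 without replicate 1 (adjusted p = 0.00604, edgeR) and 0.93 with the replicate number as a block (adjusted p = 0.0374, edgeR), so it was then no DEG. *MYL5* had 54, 87 and 60 counts in Control, 56, 68 and 74 in CTCFL-OE, followed by 107, 85 and 84 in CTCFL-KD. Its log2 fold change was 1.06 (SE 0.32, adjusted p = 0.0224, edgeR), or 0.66 without replicate 1. With length and GC offsets it was 0.55 and no longer passed (adjusted p = 0.0511, edgeR). *ATP5ME*, which overlaps 13.3% of the *MYL5* exon bases on the opposite strand, had 37.0 ± 4.79 CPM in Control and 79.1 ± 70.3 in CTCFL-KD.

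In the same fit the abundant light chains and *TAGLN2* did not pass, and their CTCFL-KD values were split by the same library. *MYL6* had 772 CPM in CTCFL-KD replicate 1, 250.3 and 236.5 in the others, and 344.0 to 390.4 in Control. *MYL12A* (340.6, 180.8 and 190.8 CPM) and *MYL12B* (530.1, 255.5 and 238.8 CPM) showed the same split in CTCFL-KD. *MYL12A* and *MYL12B* are near-identical paralogs, so the division of reads between them is uncertain. Without replicate 1 the log2 fold changes in CTCFL-KD were -0.56 for *MYL6*, -0.72 for *MYL12A*, -0.85 for *MYL12B* and -0.62 for *TAGLN2*, and all 4 then passed, with adjusted p from 0.00137 to 0.0119 by edgeR. With all libraries kept and length and GC offsets, *MYL12A* (-0.43, adjusted p = 0.0373, edgeR) and *TAGLN2* (-0.70, adjusted p = 0.0111, edgeR) also passed lower, while *MYL6* and *MYL12B* did not. These genes have transcripts of 0.708 to 1.38 kilobases, against 7.45 for *MYH9*. In CTCFL-OE the 4 genes lay below Control in every library, with log2 fold changes from -0.44 to -0.56 and adjusted p from 0.296 to 0.579 by edgeR, and in the edgeR fit on the 6 libraries of that comparison alone all 4 passed lower.

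**Figure D4:**
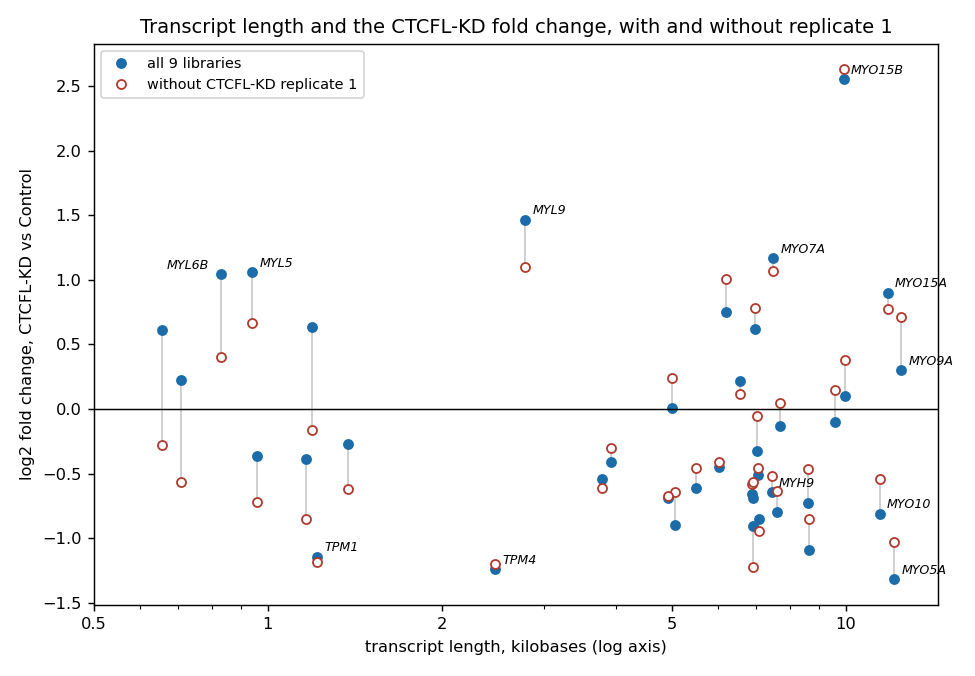
Log2 fold change in CTCFL-KD vs Control against transcript length (kilobases, log axis) for the 40 tested members, with all 9 libraries (filled) and without CTCFL-KD replicate 1 (open). The short light chains drop when replicate 1 is left out, *MYL6B* from 1.04 to 0.41, while *TPM1*, *TPM4*, *MYO7A* and *MYO15B* move by less than 0.1.

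The class I myosins, single-headed motors that tie membranes to cortical actin, were lower in CTCFL-KD. All 4 that were tested passed there, against 16.8% of all genes passing lower, and *MYO1E* was a DEG. *MYO1E* (chr15:59132434-59372871), a motor of endocytic sites and podocytes, had 1051, 1417 and 1112 counts in Control, 806, 773 and 579 in CTCFL-OE, followed by 182, 494 and 565 in CTCFL-KD. The groups did not overlap, at 54.7 ± 1.87, 37.6 ± 2.51 and 25.6 ± 7.97 CPM. The log2 fold change in CTCFL-KD was -1.09 (SE 0.22, adjusted p = 0.00345, edgeR), and -0.85 without replicate 1. *MYO1E* did not pass in CTCFL-OE vs Control (-0.54, adjusted p = 0.238, edgeR) or in CTCFL-KD vs CTCFL-OE (-0.55, adjusted p = 0.0893, edgeR). *MYO1C* fell from 233.2 ± 8.61 to 144.6 ± 2.64 CPM (log2 fold change -0.69, SE 0.16, adjusted p = 0.00546, edgeR) and *MYO1D* from 22.3 ± 1.44 to 14.6 ± 3.06 (-0.61, SE 0.22, adjusted p = 0.0461). With the block, *MYO1D* no longer passed (adjusted p = 0.0637, edgeR).

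The class V myosins, processive carriers of vesicles, went apart in CTCFL-KD. *MYO5A* (chr15:52307281-52529132), known as the melanosome carrier, had 601, 847 and 716 counts in Control, 482, 497 and 402 in CTCFL-OE, followed by 79, 291 and 276 in CTCFL-KD. Its level stepped down over the groups without overlap, at 33.1 ± 3.09, 24.2 ± 2.04 and 13.2 ± 5.36 CPM, and its log2 fold change in CTCFL-KD was -1.32 (SE 0.27, adjusted p = 0.00362, edgeR). The step to CTCFL-OE did not pass (-0.45, SE 0.27, adjusted p = 0.399, edgeR). Its neighbor *MYO5C* (chr15:52192322-52295804), the form of glandular epithelia, had 269, 380 and 303 counts in Control, 260, 221 and 163 in CTCFL-OE, followed by 188, 433 and 442 in CTCFL-KD. It rose in CTCFL-KD by 0.62 on the log2 scale (SE 0.19, adjusted p = 0.0239, edgeR) and was a DEG against CTCFL-OE (log2 fold change 1.003, SE 0.19, adjusted p = 0.00323, edgeR), though past the fold threshold in only 6 of the 17 other settings. *MYO5B*, which serves recycling endosomes, had 93.2 ± 1.69 CPM in Control and 87.0 ± 27.7 in CTCFL-KD, with an adjusted p of 0.762.

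*MYO15B* (chr17:75587800-75626849), a paralog of the stereocilia motor *MYO15A*, had the largest log2 fold change of the tested members. It had 38, 45 and 27 counts in Control, 38, 54 and 46 in CTCFL-OE, followed by 97, 198 and 164 in CTCFL-KD. All CTCFL-KD libraries, at 8.75 to 11.8 CPM, were above the 1.37 to 1.90 of Control and the 1.73 to 2.83 of CTCFL-OE. Its log2 fold change was 2.55 against Control (SE 0.26, adjusted p = 4.84e-05, edgeR) and 2.01 against CTCFL-OE (SE 0.25, adjusted p = 0.000273, edgeR). Both calls held in all 17 other settings. *MYO15A* itself was near the limit of measurement, at 0.754 ± 0.236 CPM in Control and 1.43 ± 0.260 in CTCFL-KD (log2 fold change 0.90, adjusted p = 0.042, edgeR), and the call was lost in 13 of the 17 other settings, the block among them (adjusted p = 0.0684).

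Together with *MYO7A*, these belong to the myosins with MyTH4 and FERM tail domains, which build actin-filled protrusions. The other members of this kind went down in CTCFL-KD. *MYO10* fell from 701.7 ± 56.1 to 400.5 ± 140.9 CPM (log2 fold change -0.81, SE 0.26, adjusted p = 0.0322, edgeR), and *MYO7B*, a motor of microvillar tips, from 9.20 ± 0.551 to 5.00 ± 1.94 (-0.90, SE 0.29, adjusted p = 0.0301). *MYO10* had 727.7 ± 27.6 CPM in CTCFL-OE, close to Control, so all 3 CTCFL-KD libraries were below both other groups.

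Among the other unconventional myosins, *MYO6*, the motor that moves toward the minus end of actin, fell in CTCFL-KD from 86.1 ± 5.06 to 52.1 ± 18.0 CPM (log2 fold change -0.72, SE 0.25, adjusted p = 0.0433, edgeR). It was -0.46 without CTCFL-KD replicate 1 and -0.41 with length and GC offsets, and 6 of the 17 other settings lost the call. *MYO9B*, a single-headed motor with a signaling tail, fell from 68.2 ± 3.06 to 39.3 ± 7.76 (-0.79, SE 0.18, adjusted p = 0.00638). Its relative *MYO9A* did not pass, and its CTCFL-KD libraries had 14.3, 54.7 and 57.4 CPM against 31.9 to 38.0 in Control. Without CTCFL-KD replicate 1 it passed higher (log2 fold change 0.71, adjusted p = 0.00198, edgeR). *MYO3B*, named after its values were seen, went from 0.75 (adjusted p = 0.0511, edgeR) to 1.003 (adjusted p = 0.00141) without that library and was then a DEG. The untested *MYO18B*, named after its values were seen, had 1, 1 and 3 counts in Control, 1, 3 and 0 in CTCFL-OE, followed by 9, 16 and 8 in CTCFL-KD. Its 33 summed CTCFL-KD counts against 5 in Control gave a ratio of 9.36 after scaling, with an exact 95% interval of 3.63 to 30.7 that covers counting error only.

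*TAGLN* (chr11:117199370-117207464), or SM22, an actin binder and smooth muscle marker, was low throughout. It had 38, 56 and 44 counts in Control, 44, 91 and 78 in CTCFL-OE, followed by 18, 26 and 22 in CTCFL-KD. CTCFL-KD was below CTCFL-OE in every library (log2 fold change -1.40, SE 0.34, adjusted p = 0.0122, edgeR), and the call was lost without CTCFL-OE replicate 2 (adjusted p = 0.0513, edgeR). On the same strand, ENSG00000280143 overlaps 38.1% of the *TAGLN* exon bases and had at most 7 counts in any library. *PCSK7* shares 34.1% of the *TAGLN* exon bases on the opposite strand, and had 16.5 ± 0.736 CPM in Control, 22.5 ± 5.83 in CTCFL-OE cells and 24.2 ± 11.5 in CTCFL-KD. *CALD1*, or caldesmon, had 187.8 ± 3.29 CPM in Control and 188.8 ± 56.4 in CTCFL-KD, with an adjusted p of 0.984 by edgeR.

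In CTCFL-KD vs CTCFL-OE, 5 of the 40 tested members were DEGs, or 12.5% against 17% of all genes. They were *MYO15B*, *MYL9* and *MYO5C*, which were higher in CTCFL-KD (7.5% against 10.6%), and *MYH3* and *TAGLN*, which were lower (5% against 6.42%). The adjusted p alone was passed by 13 members, or 32.5% against 26.8%, of which 3 were higher (7.5% against 15.3%) and 10 lower (25% against 11.5%), *TPM1* (log2 fold change -0.68), *TPM4* (-0.56), *MYO5A* (-0.87), *MYO9B* (-0.67) and *MYO10* (-0.86) among them. The 2 groups did not overlap in 23 members, or 57.5% against 39.8%, with 16 lower (40% against 19.5%) and 7 higher (17.5% against 20.3%). In an edgeR fit on these 6 libraries alone, only the 5 DEGs passed, or 12.8% of the 39 members tested there against 15.5% of all genes. When 1 library was left out, 7 to 22 members passed. The lowest count came without CTCFL-OE replicate 2 (16.7% against 17.3% of all genes), the highest without CTCFL-KD replicate 1 (53.7% against 39.7%), and without any 1 Control library 9 passed (21.4 to 22% against 21.9%).

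**Figure D5:**
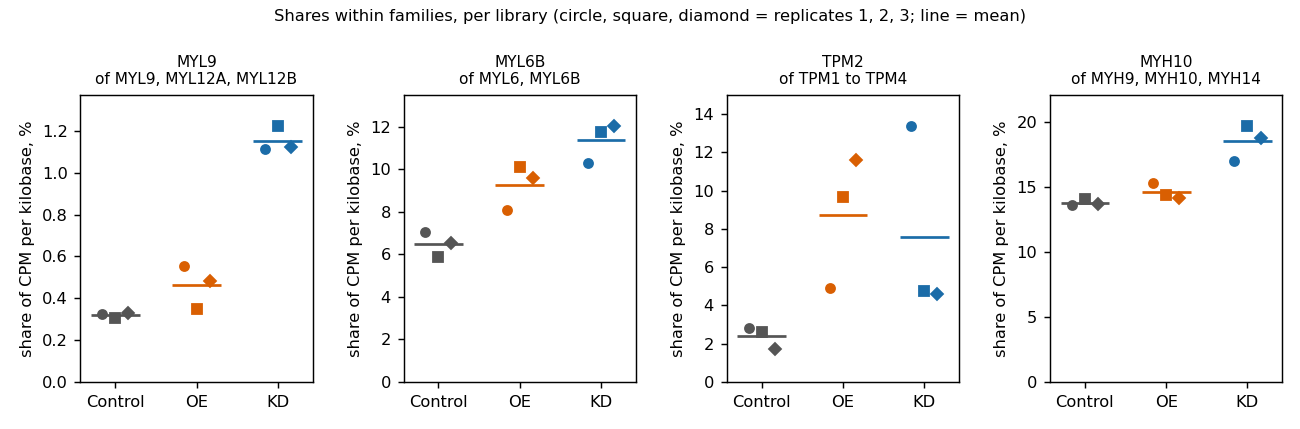
Share, in percent of CPM per kilobase, of *MYL9*, *MYL6B*, *TPM2* and *MYH10* within their families in each library. The CTCFL-KD libraries are above all Control libraries in each panel, and for *TPM2* CTCFL-KD replicate 1 stands at 13.4% against 4.57 and 4.73% in the others.

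Of 18 tested kinases, phosphatase subunits and small GTPases that set light chain phosphorylation, 7 passed in CTCFL-KD, all lower, or 38.9% against 16.8% of all genes lower and 38.2% in either direction. Among them *PPP1CB*, the catalytic subunit of myosin phosphatase, had a log2 fold change of -1.41 (SE 0.26, adjusted p = 0.00199, edgeR) and the kinase *ROCK2* one of -1.12 (SE 0.25, adjusted p = 0.00584). The list's median was -0.378 in CTCFL-KD, against 0.077 for all genes, and -0.168 in CTCFL-OE, against -0.01. Of 11 tested thin filament partners, 6 passed lower (54.5% against 16.8%) and 2 higher (18.2% against 21.4%) in CTCFL-KD, with a median of -0.755. The calponins *CNN2* (log2 fold change -1.63, SE 0.18, adjusted p = 6.33e-05, edgeR) and *CNN3* (-1.68, SE 0.21, adjusted p = 0.000189) fell, and *TMOD1*, a cap of the slow filament end, fell in both comparisons with Control (-1.41 with an adjusted p of 0.0113 in CTCFL-OE, and -1.81 with 0.000108 in CTCFL-KD). All 3 calmodulin genes, whose product is the light chain of many unconventional myosins, fell in CTCFL-KD, with log2 fold changes from -0.58 to -0.67, and they were the only ones of 5 tested chaperones and binders to pass there (60% against 16.8% lower of all genes). Of *SRF* and its coactivators *MRTFA* and *MRTFB*, 1 of 3 passed in each comparison with Control (33.3%), against 3.15% of all genes in CTCFL-OE and 38.2% in CTCFL-KD. *SRF* was lower in CTCFL-OE (log2 fold change -0.60, adjusted p = 0.0843, edgeR) and had -0.33 in CTCFL-KD (adjusted p = 0.103). *MRTFA* was lower in CTCFL-KD (-0.42, adjusted p = 0.0464, edgeR) and had -0.12 in CTCFL-OE (adjusted p = 0.692). *MRTFB* had 0.25 and -0.30 in these comparisons, with adjusted p of 0.663 and 0.413 by edgeR.

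Markers of other cells were read beside these results. The 10 epithelial carcinoma markers summed to 5398 to 5517 CPM in Control, 4821 to 5105 in CTCFL-OE cells and 9398 to 15300 in CTCFL-KD, where 7 passed higher (70% against 21.4% of all genes) and 2, *KRT7* and *WT1*, lower (20% against 16.8%). *KRT8* and *KRT18* made up most of that sum, at 4091 and 2380 CPM in CTCFL-KD on average. Of 8 fibroblast markers 2 were tested, *COL1A2* and *COL1A1*. *COL1A2* had 0 counts in every Control library, 1, 2 and 0 in CTCFL-OE, followed by 156, 239 and 247 in CTCFL-KD, whereas *COL1A1* had 29.8 CPM in Control and 23.3 in CTCFL-KD (log2 fold change -0.36, adjusted p = 0.221, edgeR), *COL3A1* had 0 counts in every Control and CTCFL-OE library and 8, 9 and 8 in CTCFL-KD, and *DCN* had at most 4 counts. The 8 fibroblast markers summed to 26.9 to 33.1 CPM in Control and 36.3 to 41.8 in CTCFL-KD. Smooth muscle markers (3 of 8 tested) summed to 26.3 to 28.0 CPM in Control, 25.0 to 31.0 in CTCFL-OE cells and 14.8 to 18.5 in CTCFL-KD, mostly from *SMTN* (23.4 CPM in Control and 11.6 in CTCFL-KD on average), with *MYOCD* at 0 and *DES* at no more than 3 counts. Striated muscle markers (3 of 10 tested) summed to 83.8 to 85.0, 84.3 to 86.5 and 76.1 to 205.8 CPM, mostly from *TNNT1*, whose CTCFL-KD counts of 2180, 971 and 1039 put the highest sum in replicate 1. *TNNT2* was a higher DEG in CTCFL-KD, with 0.898 CPM in Control and 5.28 in CTCFL-KD (log2 fold change 2.58, adjusted p = 0.000993, edgeR). The 5 blood markers summed to at most 0.773 CPM. The part of these marker changes in the members' CTCFL-KD values was not tested.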

How the data were processed

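The deposited values were gene counts, which the authors made from reads of TruSeq Stranded mRNA libraries aligned to GRCh38 with STAR and counted with featureCounts. The submitters' processing notes name Trimmomatic, kallisto and featureCounts. Which annotation, strand setting and handling of multi-mapping reads were used is not given in the sources used here. Each of the 9 library files matched its column of the matrix. GENCODE 44 named 60463 of 60660 identifiers, and 37834 genes had a count. Lengths were those of Ensembl canonical transcripts.

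Groups and replicate numbers came from the sample titles. Genes were kept by filterByExpr (17794), scaled by TMM and fitted to all 9 libraries with edgeR 4.0.16 (robust quasi-likelihood, condition only) in R 4.3.3, with limma 3.58.1, and Benjamini-Hochberg adjustment over all genes in each of 3 comparisons. DEGs were called at log2 fold changes above 1 or under -1 with an adjusted p below 0.1 (CTCFL-OE vs Control) or 0.05 (CTCFL-KD vs Control), the study's thresholds, and at 0.05 in CTCFL-KD vs CTCFL-OE, a threshold chosen here. Correlations used log2(CPM + 0.5). The script was tested on simulated data. DESeq2 1.42.0, other scalings and filters, length and GC offsets, a replicate block and leaving out each library were alternatives. Figures were drawn with Python 3.11.15, pandas 2.3.3 and matplotlib 3.10.9.

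The members and lists were chosen with earlier results of these data known. Counts per library were given for *MYO7A* and for each member that was a DEG in any comparison, and group values for members that passed the adjusted p or reached 50 CPM in Control. A few genes that these rules or the lists would name are not reported here. Depths of 14332622 to 24490080 counts put the limit that a count of 0 allows (3 counts) at 0.117 to 0.271 CPM, and this covers counting error only.

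Replicates 1 to 3 of CTCFL-KD and Control deviated together (r = 0.392, 0.224 and 0.275 between same-numbered libraries over 11622 genes), so the replicate number served as a block in an alternative fit. Each library's ratio to its group also followed transcript length, with rank correlations of -0.293, 0.062 and 0.235 in Control replicates 1 to 3. In CTCFL-KD these were -0.59, 0.535 and 0.56. Whether the libraries were paired was not tested. The sources call the replicates independent and name no shared day or batch. Same-numbered libraries of CTCFL-OE and Control (r = -0.043, 0.233 and -0.049) did not deviate together.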

Additional observations from a re-analysis of the deposited data

How the results depend on the processing

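Among the members, none that passed the adjusted p in a comparison reversed its direction there in the 17 other settings. Other named genes were not followed through them. In CTCFL-OE vs Control, the 368 DEGs of all genes became 826 without the low-count filter, 835 with the 6 compared libraries alone, 644 with length and GC offsets and 587 with these and the block, and 44 to 1184 when 1 library was left out. The count was 45, 61 and 44 without Control replicates 1, 2 and 3, 1184, 79 and 109 without CTCFL-OE replicates 1, 2 and 3, and 980 without CTCFL-KD replicate 1. The main fit had 243 higher and 125 lower DEGs. Without Control replicates 1, 2 and 3, 17, 25 and 18 were higher and 28, 36 and 26 lower. Without CTCFL-OE replicate 3, 47 were higher and 62 lower. In the other settings more were higher than lower. The cause was not tested. The 1 member called there became 2 in those 4 fits and in DESeq2, and 1 to 4 when 1 library was left out, with *TPM2*, *MYH3* and *TAGLN* added without CTCFL-OE replicate 1 and *TPM2* and *MYL11* without CTCFL-KD replicate 1. In CTCFL-KD vs Control, leaving out 1 library gave 3661 to 4511 DEGs and 8 to 11 members. In CTCFL-KD vs CTCFL-OE, the 3032 DEGs became 1947 with at least 10 counts in every library and 2544 to 3404 when 1 library was left out, and the 5 members became 5 to 8, the highest without CTCFL-KD replicate 2 or 3. By the adjusted p alone, members passing in CTCFL-OE vs Control ranged from 1 to 19 over all settings, while the share of all genes passing ranged from 0.24 to 27.4%.

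With the replicate block, 302, 4027 and 2963 genes were DEGs in CTCFL-OE vs Control, CTCFL-KD vs Control and CTCFL-KD vs CTCFL-OE, and 1, 8 and 4 members. *TPM4* then missed the adjusted p in CTCFL-OE (0.119), *MYO5C* the fold threshold and *MYO1C* the adjusted p in CTCFL-KD vs CTCFL-OE, and in CTCFL-KD vs Control the block changed no call of a member but those given above for *MYL6B*, *MYO1D* and *MYO15A*. Other scaling moved the median of all genes by less than 0.1 on the log2 scale. At these depths, differences of members under 1 CPM could not be measured well.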
